A study of Mus musculus with 12 samples.

Results

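Bone marrow-derived macrophages (BMDM) treated for 1 h with human β-defensin 3 (hBD3) and no LPS were compared with BMDM left untreated. The samples were taken by title, which gave 3 hBD3 and 3 untreated arrays of the 12 in the series, and all 25697 probes of the arrays were described. The macrophages were grown with M-CSF (20 ng/mL) from the marrow of Balb/c mice, were kept overnight without it. The labels name no genetic modification in any group. The study's methods give the hBD3 dose as 5 μg/mL, while the sample labels give 5 mg/mL for the same arrays. The 6 other arrays, LPS (50 ng/mL) for 1 h and LPS plus hBD3 for 1 h (3 arrays each), enter here as a scale for the early response and in the estimate of the spread. The submitters' design note gives 3 separate mice for each group, and it does not say whether arrays with the same replicate number came from the same mouse. All p-values measure the spread between these arrays.

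β-defensins are small cationic peptides of epithelia and leukocytes that kill microbes and also act on host cells, where chemokine receptors, melanocortin receptors and Toll-like receptors have been proposed to bind them. In a macrophage, LPS is handed by CD14 to the complex of TLR4 and MD-2 (the product of Ly96), and the adaptors MyD88 and TRIF (Ticam1) carry the signal to NF-κB, MAP kinases and interferon regulatory factors. The first transcripts to appear after such a signal encode transcription factors of the Egr, Fos and Jun families, cytokines and chemokines, and the inhibitors that later shut the signal off. At 1 h, these primary response genes are therefore where an early response to LPS is looked for. Their transcripts alone do not show whether another ligand was sensed.

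On each of the 6 arrays, 9334 to 9923 probes had a detection p under 0.01, which is the measure of signal over background that the array software gives. Of all probes, 8719 were detected on all 6 arrays, 1961 on some and 15017 on none. After quantile normalization, Pearson's r of log2 signals between any 2 of the 6 arrays was 0.987 to 0.997. Of the markers listed for macrophages, 19 of 22 measured were detected on at least 3 of the 6 arrays, among them Adgre1, Cd14, Fcgr1 and Itgam, whereas Fcer1g, Msr1 and Cd163 were not. The detected markers of other cells were 2 of 21 for neutrophils and granulocytes (S100a8 and Csf3r), 1 of 18 for lymphocytes (Il7r), 1 of 14 for dendritic cells (Cst3) and 5 of 18 for stromal and erythroid cells, and the T cell and B cell genes Cd3e and Cd79a were at background on all 6. In RNA from whole cultures, fewer cells of a type and less RNA per cell cannot be told apart.

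No probe passed the test between hBD3 and untreated BMDM. Of 25697 probes, 0 passed an adjusted p of 0.05 in either direction (0% called), and the smallest adjusted p by limma (Benjamini-Hochberg) was 0.9999. Before adjustment, p was under 0.05 with a higher signal in hBD3 for 254 probes (0.988%) and with a lower one for 359 (1.4%). With the replicate number as a block, so that each hBD3 array was set against the untreated array of the same number, 0 probes passed (0% called, smallest adjusted p 0.9993 by limma), and the counts before adjustment were 438 higher and 575 lower. With the block and only the 6 arrays of this comparison, 0 passed, the smallest adjusted p was 0.8137 by limma, and the counts before adjustment were 697 higher and 791 lower.

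The fitted differences were small in size as well. Log FC here is the difference of mean log2 signals, hBD3 minus untreated. On the 8719 detected probes it ran from -0.90 to 0.61, with 0 probes beyond 1 or -1, 2 above 0.5 and 13 below -0.5, and its SD over probes was 0.14. On the same probes and against the same untreated arrays, LPS gave 46 probes above 1 and 44 below -1, and LPS plus hBD3 gave 9 above 1 and 0 below -1. One LPS array, replicate 1, stood apart from the other LPS arrays (mean r with them 0.968, against 0.979 and 0.983), and its part in the low tail of the LPS histogram was not tested.

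**Figure D1:**
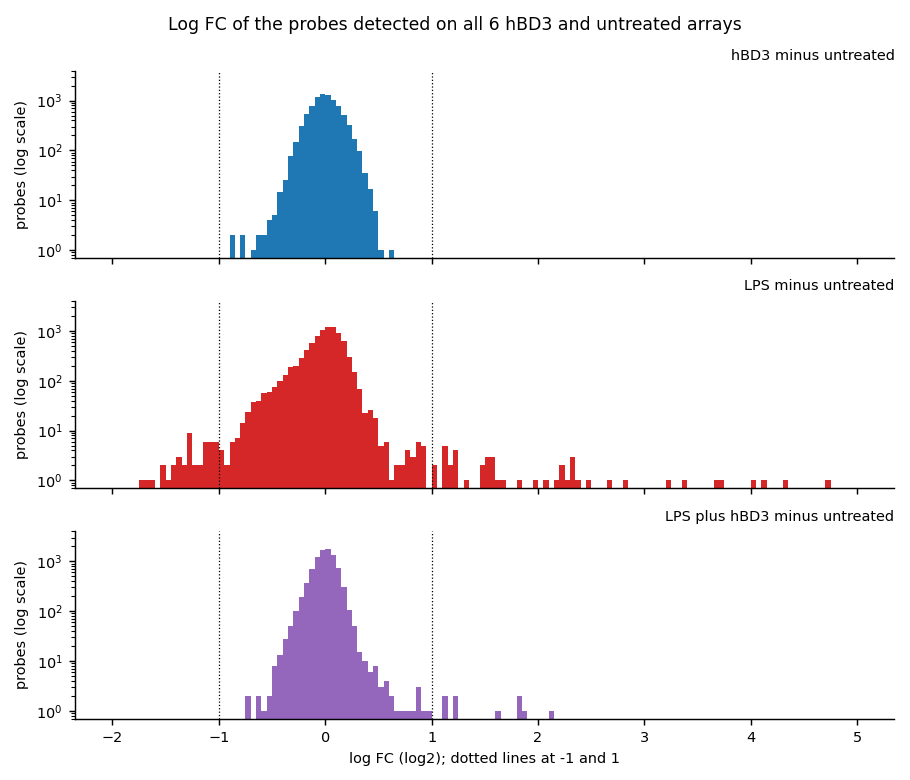
Histograms of log FC (log2, horizontal axis) over the 8719 probes detected on all 6 hBD3 and untreated arrays, with the number of probes on a log axis, for hBD3, LPS and LPS plus hBD3, each minus the same untreated arrays. The hBD3 values lie between -0.90 and 0.61, inside the dotted lines at -1 and 1, while 46 probes with LPS lie above 1.

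The intervals show how large a difference each probe could still hide. The standard error of log FC had a median of 0.14 over the detected probes. For 8300 of them (95.19%), the 95% confidence interval of limma lay within -1 to 1, which means that a doubling or a halving was outside it. For 5595 (64.17%) it lay within -0.5 to 0.5, a factor of 1.41, and for 8698 (99.76%) within -2 to 2, a factor of 4. These intervals are for single probes and are not adjusted for the number of probes, and a probe at background has a narrow interval because its signal barely moves.

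The genes that LPS moves most at 1 h were close to their untreated level with hBD3. Cxcl1 and Cxcl2 encode the neutrophil chemoattractants KC and MIP-2, and Nfkbia encodes IκBα, the inhibitor that NF-κB itself induces. The bases just upstream of their annotated starts are shown because all 3 hold a κB-type motif, GGANTTNCC, printed in capitals (searched on both strands). The sequences are from RefSeq on GRCm38.p6, 250 bases each, written 5′ to 3′ on the gene's strand and ending at the base before the start.
Cxcl1, chr5:90890995-90891244 (+ strand): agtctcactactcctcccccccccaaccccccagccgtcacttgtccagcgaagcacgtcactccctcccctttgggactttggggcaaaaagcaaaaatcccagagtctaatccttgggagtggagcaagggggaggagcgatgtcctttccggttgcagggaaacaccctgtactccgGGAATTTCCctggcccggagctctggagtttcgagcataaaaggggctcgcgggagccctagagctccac
Cxcl2, chr5:90903649-90903898 (+ strand): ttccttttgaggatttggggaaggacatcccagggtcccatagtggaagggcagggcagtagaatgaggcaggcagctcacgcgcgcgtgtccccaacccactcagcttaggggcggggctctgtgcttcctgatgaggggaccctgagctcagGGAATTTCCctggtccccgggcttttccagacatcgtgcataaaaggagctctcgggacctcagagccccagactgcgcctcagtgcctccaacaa
Nfkbia, chr12:55492648-55492897 (- strand): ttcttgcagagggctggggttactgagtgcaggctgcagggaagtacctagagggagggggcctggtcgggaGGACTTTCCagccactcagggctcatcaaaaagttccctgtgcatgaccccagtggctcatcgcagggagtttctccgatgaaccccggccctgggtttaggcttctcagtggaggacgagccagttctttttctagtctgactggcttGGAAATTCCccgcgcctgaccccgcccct
The match begins 70 bases before the start in Cxcl1 and 96 in Cxcl2. Nfkbia holds 2 matches, 178 bases before the start on the strand shown and 29 before it on the other strand. The motif was found in this window in 986 of 27025 genes (3.65%), in 7 of the 19 listed early cytokines and chemokines that had a RefSeq window (Csf1, Cxcl1, Cxcl2, Cxcl3, Cxcl10, Ifnb1 and Il6), and in 6 of 23 feedback inhibitors. A match is a description of these letters and does not show that a factor binds there.

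Cxcl1 had log2 signals of 8.35, 8.67 and 7.47 on untreated replicates 1, 2 and 3, of 8.59, 8.17 and 7.71 with hBD3, and of 12.70, 12.85 and 13.17 with LPS. The hBD3 arrays lay within the span of the untreated arrays, and the LPS arrays lay above both. Its log FC with hBD3 was -0.01 ± 0.33 (SE, 95% interval -0.73 to 0.72), against 4.75 with LPS. For Cxcl2, the untreated signals were 7.66, 7.40 and 6.45, those with hBD3 7.59, 7.26 and 7.08, and those with LPS 10.33, 11.60 and 11.65, so that hBD3 again stayed within the untreated span. Tnf, the cytokine most used as a readout of LPS sensing, had 8.03, 9.23 and 8.48 untreated, 8.18, 8.96 and 8.74 with hBD3, and 11.54, 13.05 and 13.51 with LPS. Its log FC with hBD3 was 0.05 ± 0.56 (95% interval -1.18 to 1.27), one of the wider intervals in this set. With the block, its standard error was 0.26, and the same-numbered differences were 0.15, -0.27 and 0.26. Nfkbia had 10.14, 10.36 and 10.02 untreated and 10.13, 10.41 and 10.12 with hBD3, a log FC of 0.05 ± 0.25, while the LPS arrays read 11.52 to 12.53.

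**Figure D2:**
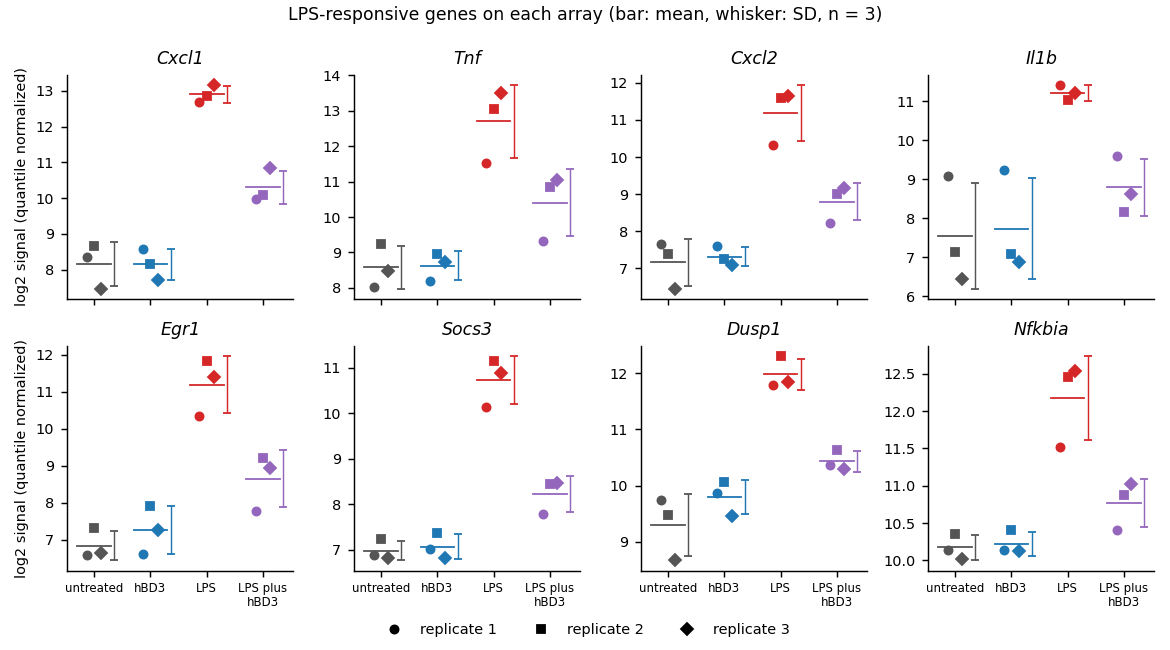
Quantile normalized log2 signals (vertical axis, own scale in each panel) of 8 genes on each of the 12 arrays by group, with 1 symbol for each replicate number, a bar at the mean and a whisker for the SD (n = 3). The hBD3 and untreated arrays overlap in all 8 panels, and the LPS arrays lie above both groups in all 8.

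The other cytokines split between those expressed at rest and those at background. Il1b, which encodes pro-IL-1β, had 9.07, 7.14 and 6.45 untreated and 9.23, 7.09 and 6.88 with hBD3, so that replicate 1 was the highest in both groups and the 3 same-numbered differences were 0.16, -0.05 and 0.44. Ccl3, which encodes the chemokine MIP-1α, had 9.09, 10.13 and 9.34 untreated and 9.20, 10.58 and 10.14 with hBD3. It had the highest log FC of the list, 0.46 ± 0.54 (unadjusted p = 0.411 by limma, and 0.021 with the block), with all 3 same-numbered differences above 0 and the groups overlapping. The value was 0.15 without hBD3 replicate 2 and 0.84 without hBD3 replicate 1. With replicate 1, 2 or 3 left out of every group, so that the numbers stay balanced, it was 0.63, 0.46 and 0.29. Osm (oncostatin M) had a log FC of 0.24 ± 0.32 and Ccl5 (RANTES) of 0.08 ± 0.20. Il6 and Il12a were not above background on any of the 6 arrays (log2 signals 5.46 to 5.56 and 5.32 to 5.67).

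Of the listed early cytokines and chemokines, 29 were measured, 18 of them were not detected on any of the 6 arrays, and 0 passed the test. Of the 10 detected on at least 3 arrays, 9 had a log FC above 0 and the median was 0.16. Over all 9744 probes detected on at least 3 arrays, the median was -0.003, with 4777 above 0 and 4967 below. The list's median same-numbered difference was 0.14, 0.05 and 0.28 for replicates 1, 2 and 3. Of its members, 1 had all hBD3 arrays above all untreated arrays, against 3.88% of all probes.

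Immediate early transcription factors were similar. Egr1, a zinc finger factor induced by ERK signaling, had 6.60, 7.31 and 6.64 untreated, 6.61, 7.93 and 7.28 with hBD3, and 10.35, 11.84 and 11.40 with LPS. Its log FC with hBD3 was 0.42 ± 0.47 (95% interval -0.61 to 1.45, unadjusted p = 0.387 by limma). With the block, the standard error was 0.17 and the unadjusted p was 0.034 by limma (adjusted p 0.9993). The groups overlapped, and replicate 1 was level in both. The log FC was 0.09 without hBD3 replicate 2 and 0.75 without hBD3 replicate 1. With replicate 1, 2 or 3 left out of every group, it was 0.61, 0.34 and 0.31. Fos, a subunit of AP-1, had 7.10, 7.72 and 7.30 untreated and 7.07, 7.95 and 7.59 with hBD3. Its log FC of 0.16 ± 0.30 was -0.04 without hBD3 replicate 2. Without replicate 1, 2 or 3 of every group, Fos had 0.25, 0.14 and 0.10. Jun, its partner, had 8.19, 8.12 and 8.01 untreated and 7.81, 8.50 and 8.94 with hBD3. Replicate 1 was lower and replicates 2 and 3 were higher than their untreated arrays. The log FC of Jun, 0.31, was 0.05 without hBD3 replicate 3. It was 0.64, 0.28 and 0.0002 without replicate 1, 2 or 3 of every group. Of the 17 detected members of this list, 11 had a log FC above 0, the median was 0.09 and 0 passed the test.

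Dusp1, a MAP kinase phosphatase, had the highest log FC of the 6254 named genes whose brightest probe was detected on all 6 arrays. Its signals were 9.74, 9.48 and 8.67 untreated, 9.87, 10.06 and 9.46 with hBD3, and 11.78, 12.30 and 11.85 with LPS. The hBD3 arrays overlapped the untreated ones, and the low value of untreated replicate 3 lay outside the span of the rest. The log FC was 0.50 ± 0.26 (95% interval -0.06 to 1.07, unadjusted p = 0.077 by limma, 0.014 with the block, adjusted p 0.9993 with the block). Without untreated replicate 3 it was 0.19. Without replicate 1, 2 or 3 of every group, it was 0.68, 0.46 and 0.36. Its upstream window is shown for the CRE, TGACGTCA, the cAMP response element, in capitals.
Dusp1, chr17:26508473-26508722 (- strand): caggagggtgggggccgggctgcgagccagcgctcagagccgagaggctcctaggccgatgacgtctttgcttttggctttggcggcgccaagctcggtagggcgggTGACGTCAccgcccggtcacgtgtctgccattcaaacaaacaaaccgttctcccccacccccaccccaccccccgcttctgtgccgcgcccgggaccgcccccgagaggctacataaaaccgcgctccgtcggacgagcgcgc
The element begins 143 bases before the start and was found in this window in 478 of 27025 genes (1.77%). Of the listed early targets of cAMP, calcium and growth factor signals, 3 of 19 held it (Areg, Dusp1 and Rcan1). The 16 detected members of that list had a median log FC of 0.03, with 9 above 0 and 7 below.

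Values of the other feedback inhibitors lay on both sides of 0. Socs3, an inhibitor of cytokine receptor signaling, had 6.90, 7.23 and 6.83 untreated and 7.01, 7.37 and 6.82 with hBD3 (log FC 0.08 ± 0.26), and Dusp2, a nuclear MAP kinase phosphatase, had 6.99, 7.73 and 7.35 untreated and 7.21, 7.44 and 7.25 with hBD3. Nfkbid, which encodes the nuclear IκB protein IκBNS, had 7.44, 7.69 and 7.47 untreated and 7.16, 7.17 and 7.29 with hBD3. All 3 hBD3 arrays of Nfkbid lay below all 3 untreated arrays, as they did for 4.23% of all probes. The log FC was -0.32 ± 0.12 (unadjusted p = 0.0257 by limma, 0.0126 with the block). Of the 19 detected members of the list, 9 had a log FC above 0 and 10 below, the median was -0.06, and 0 passed the test.

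A direct comparison of LPS with hBD3 uses no untreated array in its difference. It was chosen once the values were known. With LPS, 33 probes (0.128%) were higher and 2 (0.00778%) lower than with hBD3 at an adjusted p under 0.05 by limma, and with the replicate block 104 (0.405%) were higher and 12 (0.0467%) lower. Without replicate 2 of every group, 0 probes passed, and without replicate 3 of every group 4 did. The 33 probes named 30 genes and had log FC of 0.45 to 4.76 for LPS minus hBD3. These 33 probes were chosen with the same hBD3 arrays, which favors low values on those arrays. Their values for hBD3 minus untreated are therefore a description and no separate test. The same 33 probes had log FC of -0.39 to 0.50 for hBD3 minus untreated, with a median of -0.01, 16 above 0, and 29 intervals within -1 to 1. Cxcl1 (adjusted p = 0.000117), Socs3 (0.000141), Dusp2 (0.000283), Cxcl2 (0.00214), Egr1 (0.00676), Dusp1 (0.0061), Nfkbia (0.00938) and Tnf (0.0156) were among them. Il1b was not, with a difference of 3.48 and an adjusted p of 0.201 by limma.

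The genes of LPS sensing themselves were detected in both groups, and none passed the test. Tlr4 had 9.28, 8.47 and 8.59 untreated and 9.09, 8.56 and 8.56 with hBD3 (log FC -0.05 ± 0.22), and Cd14 had 13.42, 12.96 and 13.10 untreated and 13.40, 12.96 and 13.03 with hBD3 (-0.03 ± 0.18). Ly96 had a log FC of -0.01 ± 0.16, Myd88 of -0.09 ± 0.12, Ticam1 of 0.02 ± 0.21 and Irak2, a kinase downstream of MyD88, of -0.02 ± 0.13. Tlr2, the receptor for bacterial lipoproteins, had 12.66, 11.66 and 11.41 untreated and 12.78, 11.89 and 11.39 with hBD3, following the replicate number. Map3k8, which encodes the kinase TPL-2 that links TLRs to ERK, had 8.17, 8.99 and 8.64 untreated and 8.06, 8.47 and 8.22 with hBD3, a log FC of -0.35 ± 0.20 with all 3 same-numbered differences below 0. Of the 31 detected TLR signaling genes, 11 had a log FC above 0 and 20 below, the median was -0.02, and 0 passed the test.

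Of the receptors and uptake genes proposed for β-defensins, 11 of 24 measured were detected on at least 3 arrays. Ccr2 and Ccr6, the chemokine receptors, and Mc1r, the melanocortin receptor, were at background on all 6 arrays (log2 signals 5.20 to 5.65). Cxcr4, the receptor for CXCL12, was among the brighter ones at 11.25, 11.62 and 11.56 untreated and 11.13, 11.49 and 10.97 with hBD3, with each hBD3 array below its same-numbered untreated array and a log FC of -0.28 ± 0.14. Fpr2, a formyl peptide receptor, had 9.12, 7.90 and 7.57 untreated and 9.27, 8.09 and 7.91 with hBD3. Each hBD3 array was above its same-numbered untreated array, and the log FC was 0.23 ± 0.49. It ran from -0.19 to 0.69 when single arrays were left out, which leaves the replicate numbers unbalanced between the groups. Without replicate 1, 2 or 3 of every group, it was 0.27, 0.25 and 0.17. The median over the 11 genes was -0.01. Defb14, the mouse gene closest to the one for hBD3, was at background on all 6 arrays, and 13 of the 17 measured genes for defensins and other antimicrobial proteins were at background on all of them.

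The other gene lists lay close to 0, as in the plot of list members. The 64 detected subunits of oxidative phosphorylation had a median log FC of 0.10, with 46 above 0 and 18 below. Of the 71 measured, 3 were higher and 0 lower at an unadjusted p under 0.05 by limma, against 0.988% and 1.4% of all probes. All hBD3 arrays were above all untreated arrays in 7 of the 71 and below in 1, against 3.88% and 4.23% of all probes. Ndufa8 and Uqcrc2, subunits of complexes I and III, had log FC of 0.24 ± 0.07 and 0.30 ± 0.09, and a second probe of Ndufa8 gave 0.02. The list's median same-numbered differences were 0.11, -0.01 and 0.16, so that replicate 2 was level. The 53 detected cytosolic ribosomal proteins had a median of 0.04, with 38 above 0, and the 16 co-stimulatory, adhesion and MHC class II genes of 0.07, with 14 above 0. Cd40 and Cd86, co-stimulatory molecules that rise late after LPS, had log FC of 0.16 ± 0.33 and 0.16 ± 0.58.

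The lists for stress and cell death had medians between -0.06 and 0.02. The 18 detected heat shock genes had a median of -0.06 (12 below 0), the 22 genes of the unfolded protein response 0.02, the 20 of the oxidative stress and metal response -0.003, the 19 of cholesterol and lipid synthesis 0.004, the 30 apoptosis genes -0.03 and the 34 of lysosome and autophagy 0.02. Chac1, an ATF4 target of the integrated stress response, had 9.29, 9.57 and 9.29 untreated and 9.43, 10.00 and 9.61 with hBD3, with each hBD3 array above its same-numbered untreated array (log FC 0.30 ± 0.20, unadjusted p = 0.16 by limma, 0.0084 with the block). Cdkn1a, which encodes the cell cycle inhibitor p21, had 9.72, 9.27 and 8.99 untreated and 9.69, 9.58 and 9.63 with hBD3 (0.31 ± 0.18). By their brightest probes, Actb had a log FC of 0.03 ± 0.15 and Gapdh of 0.19 ± 0.16. In every list 0 members passed the test.

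**Figure D3:**
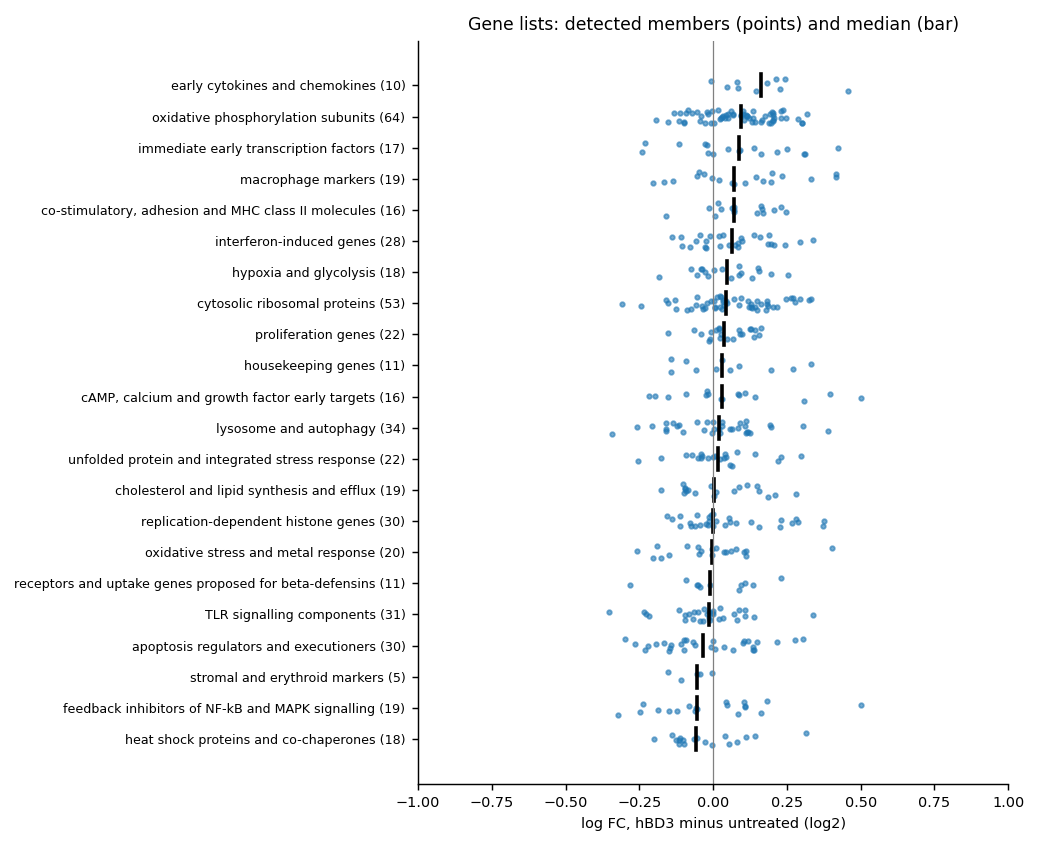
Log FC, hBD3 minus untreated (log2, horizontal axis), of the members detected on at least 3 of the 6 arrays in each list with 5 or more such members, with their number in parentheses, 1 point for each gene and a bar at the median. The medians run from -0.06 for heat shock genes to 0.16 for early cytokines and chemokines, and 0 of these genes passed the test.

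Several of the genes with the lowest log FC had high signals on untreated replicates 2 and 3. Hnrnpdl, an RNA-binding protein of the hnRNP family, had 7.99, 8.94 and 8.61 untreated and 7.78, 7.53 and 7.54 with hBD3, and Pde1b, a calcium-dependent phosphodiesterase, had 8.997, 10.13 and 9.94 untreated and 8.77, 8.79 and 8.82 with hBD3. In both genes all hBD3 arrays were below all untreated arrays, and untreated replicate 1 was nearer to the hBD3 arrays than to the other untreated ones. Their log FC were -0.90 ± 0.34 (95% interval -1.64 to -0.15) and -0.89 ± 0.35 (-1.67 to -0.11). The unadjusted p were 0.0229 and 0.0283 by limma, and 0.0169 and 0.0217 with the block. Zfc3h1, a zinc finger protein of nuclear RNA turnover, had 8.80, 9.63 and 9.44 untreated and 8.63, 8.67 and 8.61 with hBD3 (log FC -0.66 ± 0.21). Luc7l3, a splicing factor, had 9.78, 10.09 and 9.97 untreated and 9.40, 9.47 and 9.41 with hBD3 (-0.52 ± 0.22), and its other 2 detected probes had log FC of -0.41 and -0.48. Ogt, which adds N-acetylglucosamine to intracellular proteins, had 8.42, 8.61 and 8.49 untreated and 8.28, 7.76 and 7.85 with hBD3, with -0.28 and -0.21 on its other probes. The second detected probe of Hnrnpdl had a log FC of -0.14.

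The LPS plus hBD3 arrays did not all sit with the hBD3 arrays in these genes. Hnrnpdl read 8.43, 7.52 and 9.06 there and Pde1b 9.75, 8.87 and 10.40, so that replicate 2 was at the level of hBD3 alone and replicate 1 lay within the untreated span and replicate 3 above it. Erdr1 (-0.77 ± 0.72), a gene near the end of the X chromosome, had 6.88, 9.28 and 9.03 untreated and 6.96, 7.88 and 8.03 with hBD3, and the replicate 1 arrays of both groups agreed within 0.08. Without untreated replicate 1, 6 detected probes had a log FC beyond 1 or -1, the lowest at -1.54, and still 0 passed the test.

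**Figure D4:**
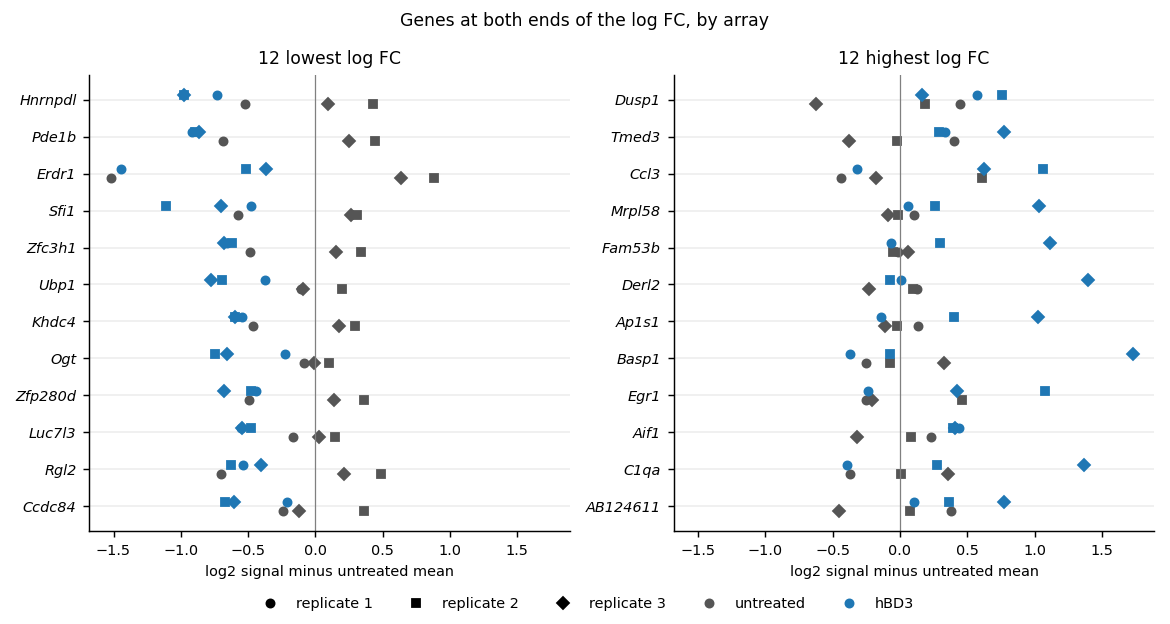
Log2 signal minus the gene's untreated mean (horizontal axis) on each untreated and hBD3 array for the 12 genes with the lowest and the 12 with the highest log FC among genes detected on all 6 arrays, with 1 symbol for each replicate number. On the left, untreated replicate 1 often lies near the 3 hBD3 arrays. On the right, hBD3 replicate 3 leads most genes.

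At the upper end, 1 array led. Of the 100 detected probes with the highest log FC, 81 had their highest value on hBD3 replicate 3, 10 on hBD3 replicate 1 and 7 on hBD3 replicate 2. Derl2, a component of the degradation of misfolded proteins in the endoplasmic reticulum, had 7.76, 7.73 and 7.40 untreated and 7.64, 7.55 and 9.03 with hBD3, and only replicate 3 was above the untreated span. Without that array its log FC was -0.03, and without replicate 3 of every group it was -0.15. A second detected probe of Derl2 had a log FC of 0.61, the highest of the 8719 detected probes. Basp1, a membrane-bound signaling protein, had 6.87, 7.05 and 7.45 untreated and 6.75, 7.05 and 8.85 with hBD3, and C1qa, a chain of complement C1q, had 8.50, 8.88 and 9.22 untreated and 8.47, 9.14 and 10.23 with hBD3. Without hBD3 replicate 3 their log FC were -0.22 and -0.06. Without replicate 3 of every group, they were -0.06 for Basp1 and 0.12 for C1qa. Aif1, a macrophage marker that binds actin, was an exception with 9.98, 9.84 and 9.43 untreated and 10.19, 10.15 and 10.16 with hBD3. All its hBD3 arrays were above all untreated arrays (log FC 0.42 ± 0.21, unadjusted p = 0.0741 by limma, 0.0146 with the block). The same array had the highest mean raw signal of the 6 (339, against 193 to 309 on the others). Of the 100 lowest, 43 had their lowest value on hBD3 replicate 3, 31 on hBD3 replicate 1 and 17 on hBD3 replicate 2.

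The 3 same-numbered differences shared little. Over the 8719 detected probes, as a description across probes of arrays that share their normalization, Pearson's r between the differences was -0.03 for replicates 1 and 2, -0.13 for 1 and 3 and 0.34 for 2 and 3. Their SD was 0.16, 0.19 and 0.30 for replicates 1, 2 and 3, and 520 probes exceeded 0.5 in replicate 3 against 3 in replicate 1 and 28 in replicate 2. All 3 differences were above 0 for 1203 detected probes (13.8%) and below 0 for 1272 (14.6%). All hBD3 arrays were above all untreated arrays for 247 detected probes (2.83%) and below for 285 (3.27%), beside 3.88% and 4.23% of all probes. For the 1510 genes with 2 or more detected probes, the 2 brightest had log FC of the same sign in 68.7%.

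Genes with the steadiest differences had small ones. By the size of log FC over its standard error, the leading genes detected on all arrays were Naxe, a repair enzyme for hydrated NADH, and Ppp4r3a, a regulatory subunit of protein phosphatase 4. Naxe had 9.67, 9.54 and 9.45 untreated and 9.88, 9.79 and 9.86 with hBD3 (log FC 0.29 ± 0.07), and Ppp4r3a had 8.52, 8.37 and 8.34 untreated and 8.14, 8.18 and 8.12 with hBD3 (-0.27 ± 0.06). Neither gene's groups overlapped, and both had an adjusted p of 0.9999 by limma. Plagl2, a zinc finger factor, had 10.74, 10.61 and 10.88 untreated, 10.45, 10.41 and 10.20 with hBD3 and 11.06, 11.07 and 11.27 with LPS. Its log FC was -0.39 ± 0.10 with hBD3, and LPS and hBD3 differed by 0.78 (adjusted p = 0.00858 by limma).

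Families defined by the start of the symbol were counted after some values had been seen, and were given no test. Of the 6254 named genes whose brightest probe was detected on all 6 arrays, 46.1% had a log FC above 0. Of the genes with symbols from Psma to Psmd, 26 of 32 were above 0 (median 0.08), and of those with H2 symbols, 15 of 16 (median 0.12). Most of these encode proteasome subunits, which cut ubiquitinated proteins, and MHC proteins, which present antigen. Psmc3ip and H2-Ke6 were counted by their symbols and are not such genes. The median same-numbered difference was 0.01, 0.00 and 0.18 for the Psma to Psmd symbols and 0.05, 0.13 and 0.35 for the H2 symbols, so that replicate 3 was the largest in both. Splicing regulators of the Srsf family were below 0 in 7 of 8 genes (median -0.14) and those of the Luc7l family in 3 of 3. Genes with Prpf, Hnrnp and Rbm symbols were below 0 in 7 of 8, 9 of 12 and 15 of 21 (medians -0.06, -0.07 and -0.06). The Sf3a and Sf3b subunits of the U2 snRNP were above 0 in 6 of 8 (median 0.05). Snrp and Snrnp symbols were above 0 in 9 of 13 (median 0.04). Zfp genes, which encode zinc finger proteins, were below 0 in 67 of 96 (median -0.06). In each of these families 0 genes passed the test.

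Few probes crossed the detection limit. Detection on all 3 hBD3 arrays and no untreated array was seen for 2 probes, in Stom and Lrsam1, and the reverse for 9, among them probes of Pan2, Tia1 and Kifc2. Other probes of Lrsam1 and Pan2 were detected on all 6 arrays. Stom, which encodes the membrane protein stomatin, had 5.85, 5.93 and 5.89 untreated and 6.14, 5.98 and 5.99 with hBD3. Tia1, which encodes an RNA-binding protein of stress granules, had 5.90, 6.19 and 6.21 untreated and 5.86, 5.92 and 5.83 with hBD3. These signals lay near the detection limit in both groups.

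Untreated arrays differed from each other by more than the hBD3 and untreated means did in many genes. In 195 named genes detected on all 6 arrays, the untreated arrays spanned more than 1 on the log2 scale (median span 1.23), and replicate 1 was the highest in 123 and the lowest in 69. The hBD3 arrays had the same replicate numbers at the top and the bottom in 144 of the 195, and in 2111 of all 6254 named genes detected on all 6 arrays. The median size of log FC was 0.11 in the 195 and 0.09 in the 6254. It exceeded 0.5 in size in 4 of the 195 and in 12 of the 6254. The genes that follow were chosen after their values were seen. Cytip, which encodes a regulator of leukocyte adhesion, had 11.38, 9.10 and 8.63 untreated and 11.23, 9.26 and 8.76 with hBD3. Cx3cr1, the fractalkine receptor of monocytes and resident macrophages, had 11.74, 9.42 and 9.18 untreated and 11.78, 9.71 and 8.91 with hBD3. Gpr176, an orphan receptor, ran the other way, with 7.22, 9.02 and 8.86 untreated and 7.27, 8.90 and 8.71 with hBD3.

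**Figure D5:**
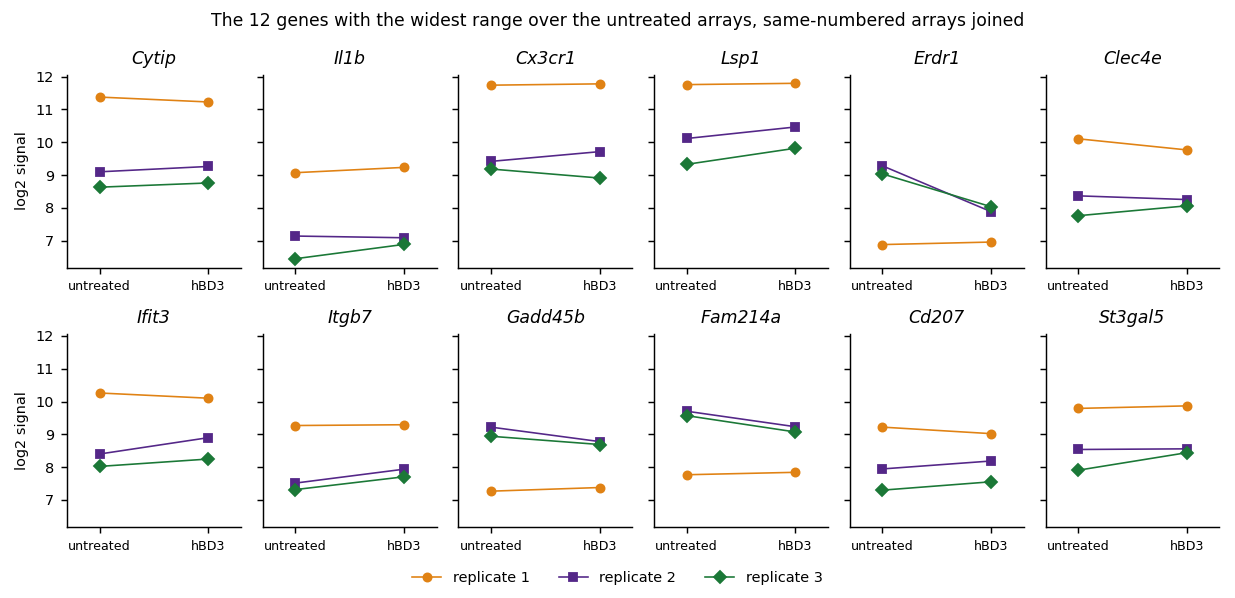
Log2 signals (vertical axis, shared) of the 12 genes with the widest span over the untreated arrays, with lines joining the untreated and hBD3 arrays of the same replicate number. Replicate 1 is the highest or the lowest untreated array in each panel, as for Cytip at 11.38 against 9.10 and 8.63.

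Interferon-induced genes had a mean signal that differed by replicate number. Their mean signal over the 28 detected members, relative to the mean of the untreated arrays, was 0.53, -0.15 and -0.38 on untreated replicates 1, 2 and 3 and 0.54, -0.02 and -0.31 with hBD3. Ifit3, an antiviral effector of this group, had 10.26, 8.40 and 8.02 untreated and 10.10, 8.90 and 8.25 with hBD3. Irf7, the factor that amplifies interferon production, had 8.67, 7.29 and 6.99 untreated and 8.56, 7.58 and 7.82 with hBD3. Its log FC of 0.34 ± 0.54 was 0.01 without untreated replicate 3 and 0.85 without untreated replicate 1. Without replicate 1, 2 or 3 of every group, it was 0.54, 0.37 and 0.09. The list's median log FC was 0.06, with 18 of 28 members above 0, and its median same-numbered differences were -0.03, 0.12 and 0.06. Histone genes went the opposite way across replicates, at -0.30, 0.10 and 0.20 untreated and -0.17, 0.13 and 0.20 with hBD3, with a median log FC of -0.002 over 30 detected members.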

How the data were processed

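Biotinylated cRNA, amplified from RNA of the 12 BMDM samples, was hybridised to Illumina MouseRef-8 arrays. The authors exported 1 summarized intensity per probe and array from BeadStudio, deposited on a linear scale and not normalized between arrays (lowest value 27.98). Per the file headers, it also holds a detection p-value for each probe and array. A second deposited table of intensities, normalized by the authors, served as an alternative. Their processing notes list limma without a version. In all, 0 per-sample columns were left unused.

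Signals were quantile normalized over the 12 arrays and log2 transformed, with no background correction and no filter. A model with a mean for each group was fitted to the 25697 probes and 12 arrays (limma 3.58.1, R 4.3.3), with Benjamini-Hochberg adjustment and a threshold of 0.05. The same fit with the replicate number as a block was the paired analysis. The numbers were taken as pairs, because deviations from the group means correlated by 0.62, 0.42 and 0.38 over all probes for same-numbered untreated and hBD3 arrays. Untreated replicate 3 correlated by 0.16 with hBD3 replicate 2, and untreated replicate 2 by 0.07 with hBD3 replicate 3. The remaining combinations were below 0. What same-numbered arrays share (mouse, preparation or day) is not stated and was not tested. A probe counted as detected at a detection p under 0.01. The errors given beside log FC are standard errors from that model. Probes were named with the platform annotation (23978 with 1 symbol, 1719 with none, 0 with several), and a gene was represented by its probe with the highest mean signal. Motifs were searched in the RefSeq promoter table with Python 3.11.15. The limma step was tested on simulated data.

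The named genes were the 12 highest and 12 lowest log FC and the 6 highest and 6 lowest ratios of log FC to error among genes detected on all 6 arrays. Added to these were up to 2 detected members of each of 26 lists and up to 6 genes in each direction that crossed the detection limit. A fixed set of sensing and response genes was also named, and not all named genes are printed. Other genes named in the text were chosen after their values were seen. The members and lists were chosen with earlier results of these data known. The alternatives changed the background correction (neqc, offset 16), the scaling (by medians, or quantiles taken on the log2 scale), the table (normalized by the authors), the probes (detected on at least 3 of 12 arrays, or 1 for each gene), the model (replicate block, the 6 arrays alone, weights for arrays, a variance trend with robust fitting) and the arrays, each left out in turn. Leaving out all arrays of 1 replicate number and the comparison of LPS with hBD3 were chosen after seeing the data. The number of arrays limits the precision.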

Additional observations from a re-analysis of the deposited data

Results flagged for a closer look

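The difference that hBD3 made with LPS (LPS plus hBD3 minus LPS) was set against the difference it made alone (hBD3 minus untreated) for the 109 named genes. By limma's test of that difference over all probes with the replicate number as a block, 5 of the genes had an adjusted p under 0.05, and without the block 0 did (smallest adjusted p over all probes 0.0585). Some of the 109 were chosen by a high or low log FC of hBD3 minus untreated, which is 1 side of this test. Dusp1 and Egr1 were among the 12 highest. For Egr1, the log FC was -2.54 with LPS and 0.42 without it, a difference of -2.96 (adjusted p = 0.00156 with the block, 0.9997 without). For Dusp2, it was -2.46 with LPS and -0.06 without it (adjusted p = 0.00156 with the block by limma, 0.137 without). For Socs3, it was -2.50 with LPS and 0.08 without it (adjusted p = 0.00284 with the block by limma, 0.105 without). For Nfkbid, it was -1.65 with LPS and -0.32 without it (adjusted p = 0.00799 with the block by limma, 0.0781 without). For Dusp1, it was -1.55 with LPS and 0.50 without it (adjusted p = 0.00961 with the block by limma, 0.309 without). Over all probes, 20 were called with the block, all with the lower difference in the presence of LPS. No group here has more than 3 arrays, so single arrays were not tested for standing apart.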

How the results depend on the processing

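Under all alternatives run, 0 probes passed for hBD3 against untreated, with and without the replicate block, including without each of the 12 arrays and without each replicate number (smallest adjusted p by limma without the block 0.6987, without replicate 1, and with the block 0.0825 without replicate 1, 0.251 without hBD3 replicate 1 and 0.492 without untreated replicate 1). The block changed no call of that comparison. The count of detected probes beyond 1 in size was 0, except for 1 with neqc, 5 without replicate 1, and 0 to 6 over the arrays left out singly, with 6 without untreated replicate 1. The share of detected probes with a 95% interval within -1 to 1, 95.19%, was 89.04% with neqc, 89.47% with median scaling, 98.74% with the block, 99.92% with the block on 6 arrays, 98.11% on 6 arrays without it, 97.36% with array weights, 94.53% with a trended and robust variance, 96.13% with 1 probe per gene, 90.95% to 98.38% over single arrays left out (98.38% without LPS replicate 1), and 98.72%, 83.46% and 91.65% without replicates 1, 2 and 3. Of the 109 named genes, none changed sign with neqc and 5 did with median scaling. Without hBD3 replicate 3, the sign changed in 3 of the 45 with a log FC of at least 0.3 in size, and without replicate 3 of every group in 2. The count for LPS against hBD3, 35, was 23 with median scaling, 116 with the block, 54 with array weights, 20 to 44 over single arrays left out (20 without hBD3 replicate 1 or 3, 23 and 22 without LPS replicate 2 and 3), and 71, 0 and 4 without replicates 1, 2 and 3. The count of named genes whose hBD3 effect differed with LPS, 0, was 5 with the block, 3 with array weights, with a trended and robust variance and with probes detected on 3 of 12 arrays, 2 with median scaling, 1 with 1 probe per gene, 0 to 4 over single arrays left out (4 without LPS replicate 1), and 8 without replicate 1. The cause of these moves was not tested. Probes at background limit what can be seen for genes such as Il6.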
